A study of Mus musculus with 16 samples.

Results

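The 10 genes described here encode smooth-muscle actins, the actin-binding proteins that go with them and 2 products of cell adhesion and matrix: Acta2, Actg2, Tagln, Cnn1, Cnn2, Myl9, Tpm1, Tpm2, Vcl and Thbs1. They were chosen by the measured differences between 2i and serum: Tagln and Acta2 are far lower in 2i in each of 3 lines of mouse embryonic stem cells (mESCs), and the other genes were taken with them as contractile genes and targets of the serum response factor SRF. The arrays carried 17 named probes for the 10 genes, among 21154 genes with a named probe and 13917 that were tested. Of the 10 genes, 9 were tested, and Actg2, gamma smooth-muscle actin, was not well above background on any array.

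Total RNA was measured on 16 one-colour arrays. J1 is the wild-type line, TKO lacks Dnmt1, Dnmt3a and Dnmt3b, and 3B3l lacks Dnmt3a and Dnmt3b and constitutively expresses exogenous Dnmt3b and Dnmt3l. All 3 lines derive from male J1 mESCs. Serum medium held 15% fetal calf serum with LIF at 500 U/ml, and 2i medium was serum-free N2B27 with 1 µM PD0325901, an inhibitor of the kinase MEK, 3 µM CHIR99021, an inhibitor of GSK3, and LIF at 1000 U/ml, for 2 weeks. J1 in serum was the only group on a layer of inactivated feeder cells (SNLP), and the other groups grew on gelatin. The groups were J1-serum with 4 arrays, J1-2i with 3, TKO-serum with 2, TKO-2i with 3, 3B3l-serum with 2 and 3B3l-2i with 2. Each line is a single line, so its genotype and its culture history cannot be told apart.

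SRF is a transcription factor that binds a DNA element called the CArG box. One class of its targets, the genes of the contractile cytoskeleton, needs the co-activators MRTF-A and MRTF-B, which leave monomeric actin and enter the nucleus as actin polymerises. The other class, immediate early genes such as Egr1 and Fos, is reached through ternary complex factors (TCFs), which are phosphorylated by ERK, the kinase downstream of MEK. Alpha smooth-muscle actin and transgelin are best known from smooth muscle and myofibroblasts, and fibroblasts of a feeder layer express them too.

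The sequences before the transcript starts of the genes were searched for the CArG box, CC and GG on either side of 6 bases that are all A or T, which reads the same pattern on both strands. RefSeq start windows (assembly GRCm38.p6, 250 bases before to 50 bases after the start) were available for 7 of the genes, and 3 of them held a CArG box, against 1.63% of 32851 windows. A looser pattern with at most 1 G or C among the 6 inner bases (CCNNNNNNGG with that limit, every CArG box included) stood in 4 of the 7 and in 9.98% of all windows. The genes were taken as SRF targets, so these shares are a description and carry no test. The matches are shown because they include both a gene that was far lower in 2i, Cnn2, and Vcl, which was not, with the same 10 letters. In the runs below, CArG boxes and the looser matches are in capitals. Bases that an annotated transcript of the gene covers were left out, except that the Acta2 matches, which lie within an annotated transcript, are shown with 30 bases each.
Cnn2: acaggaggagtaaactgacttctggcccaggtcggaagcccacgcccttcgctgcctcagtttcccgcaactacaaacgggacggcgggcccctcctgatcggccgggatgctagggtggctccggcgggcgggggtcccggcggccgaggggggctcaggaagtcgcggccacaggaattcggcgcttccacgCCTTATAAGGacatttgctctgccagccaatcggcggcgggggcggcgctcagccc
Vcl: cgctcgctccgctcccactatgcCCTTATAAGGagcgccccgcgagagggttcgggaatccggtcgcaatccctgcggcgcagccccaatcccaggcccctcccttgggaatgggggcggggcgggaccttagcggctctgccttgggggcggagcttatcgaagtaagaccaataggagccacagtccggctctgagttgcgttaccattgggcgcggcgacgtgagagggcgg
Myl9: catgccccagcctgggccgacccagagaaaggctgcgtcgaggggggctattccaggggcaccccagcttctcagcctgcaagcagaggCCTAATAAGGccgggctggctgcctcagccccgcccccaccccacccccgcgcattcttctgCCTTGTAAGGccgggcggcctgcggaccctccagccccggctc
Acta2, first match: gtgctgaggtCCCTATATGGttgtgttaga
Acta2, second match: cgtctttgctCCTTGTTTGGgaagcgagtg

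The Cnn2 run is chr10:79988350-79988599 on the plus strand, with the box 56 bases before the start. That of Vcl is chr14:20929148-20929382 on the plus strand, with the box 227 bases before the start. Myl9, chr2:156775214-156775407 on the plus strand, held a box 161 bases and a looser match 99 bases before the start. Both Acta2 matches were of the looser kind, on the minus strand at chr19:34255438-34255467 and chr19:34255388-34255417, 84 and 34 bases before the start. The windows of Cnn1, Tpm1 and Tpm2 held neither pattern, and Tagln, Actg2 and Thbs1 had no window. A match describes letters only.

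A level is the log2 signal of a probe minus the 75th percentile of its array, so a level of 0 is the 75th percentile, and a log2 difference of 1 is 2-fold. Where a group was not well above background on any array, a fold is given as a bound. Each gene is given by its lead probe, the tested probe with the highest mean. Levels of different probes are not set against each other, except for Tpm1, where the difference of 2 probes on an array is compared between groups. Medians over a list hold a gene at background in one of the groups at its bound (at 0 where there is none) and leave out genes at background in both groups. A gene was called at a limma adjusted p of at most 0.05 and at least 2-fold. The labels do not say that the arrays of a group came from separate cultures, so p-values measure the spread between these samples, which may be technical. The arrays lay on 3 slides. Slides 1 and 2 both carried J1 in the 2 media and TKO-2i, slide 1 carried TKO-serum as well, and slide 3 carried the whole 3B3l line beside a single J1-serum array, replicate 1. All 8 markers of mESCs, Pou5f1 and Sox2 among them, were well above background on every array. The smooth-muscle markers Myh11, Lmod1 and Kcnmb1 were not well above background on any array.

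Markers of other cell types differed between the groups and are given here because every comparison below involves one of these groups. The summed signal of 20 fibroblast markers, in multiples of the 75th percentile, was 27.3 to 36.8 on the J1-serum arrays, 10.8 to 13.3 in 3B3l-serum and 5.76 to 6.76 in TKO-serum, and 2.75 to 4.59 in the 2i groups. Of the 20, 11 were well above background on all J1-serum arrays, 8 on all TKO-serum and 8 on all 3B3l-serum arrays, while 6, 8 and 11 were not well above background on any array of these groups. The collagen gene Col1a1 was at 1.99 to 2.79 in J1-serum, -1.62 and -0.47 in TKO-serum and 1.37 and 2.35 in 3B3l-serum. Lum, Prrx1 and Col5a2 were at background in all 3 serum groups, and Postn, Dcn, Pdgfra and Pdgfrb in TKO-serum and 3B3l-serum. The sum of 9 primitive endoderm markers was 45.7 to 55.9 in J1-serum and 4.81 to 12.1 elsewhere. The sum of 8 trophoblast markers was 90.3 to 101 in 3B3l-serum and 9.96 to 26.0 elsewhere. The part of these cells in the results was not tested, and in such bulk RNA a change in the number of cells of a type and a change in RNA per cell cannot be told apart.

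**Figure D1:**
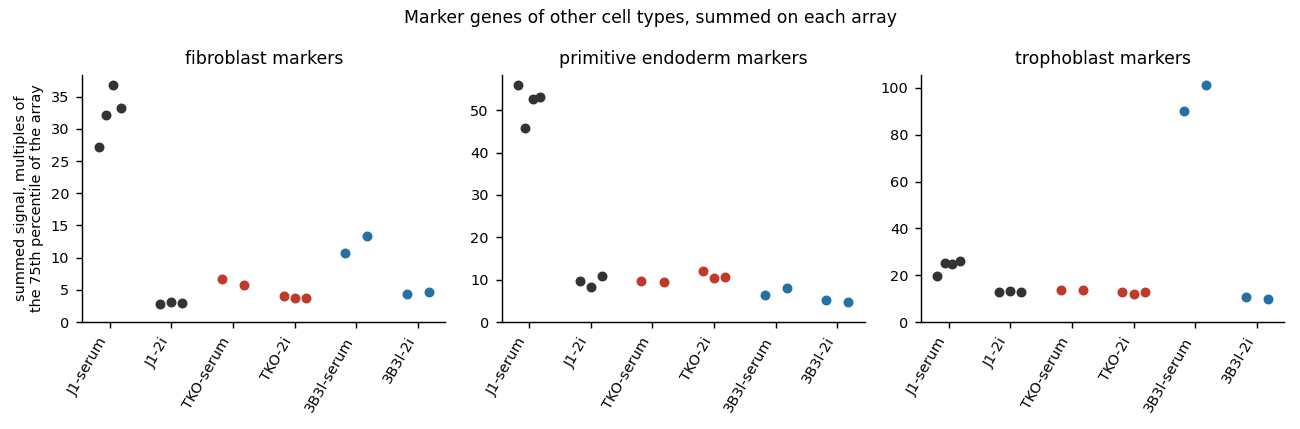
Summed signal of marker genes of fibroblasts (20 genes), primitive endoderm (9) and trophoblast (8) on each of the 16 arrays, by group, in multiples of the 75th percentile of the array (linear axes from 0). Fibroblast and primitive endoderm sums were highest on the 4 J1-serum arrays, and trophoblast sums on the 2 3B3l-serum arrays. Most of the primitive endoderm sum comes from Lama1, and most of the trophoblast sum in 3B3l-serum from Krt8 and Krt18.

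In 2i, 8 of the 9 tested genes were at least 2-fold lower than in serum and past the call in every line, where 12.5% (J1), 8.97% (TKO) and 7.9% (3B3l) of all genes tested were called lower and 10.1%, 6.79% and 5.65% higher. These differences chose the genes, so they are a description and carry no test. The gene outside the 8 was Vcl in each line. With the mean of a gene's probes in place of the lead probe, Tpm1 in TKO was also outside (-0.52), which leaves 7 in that line. With Cnn1, Myl9 and Thbs1 held at their bounds, the median difference of the 9 genes was -3.39 (J1), -2.71 (TKO) and -3.70 (3B3l), against 0.06, 0.08 and 0.01 over all genes tested. Counted from the most lowered of 13917 genes, Acta2 was number 7 (J1), 62 (TKO) and 42 (3B3l), and Tagln number 29, 41 and 9. Acta2 lay close to background in J1-2i, so its place in J1 is uncertain. TKO and 3B3l were without feeders in both media, while in J1 the change of medium and the loss of the feeders cannot be told apart. On single slides the difference of Acta2 was -6.81 and -5.90 in J1 and -3.76 in TKO, and that of Tagln -5.19, -5.08 and -4.62, while all 3B3l arrays lay on one slide.

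**Figure D2:**
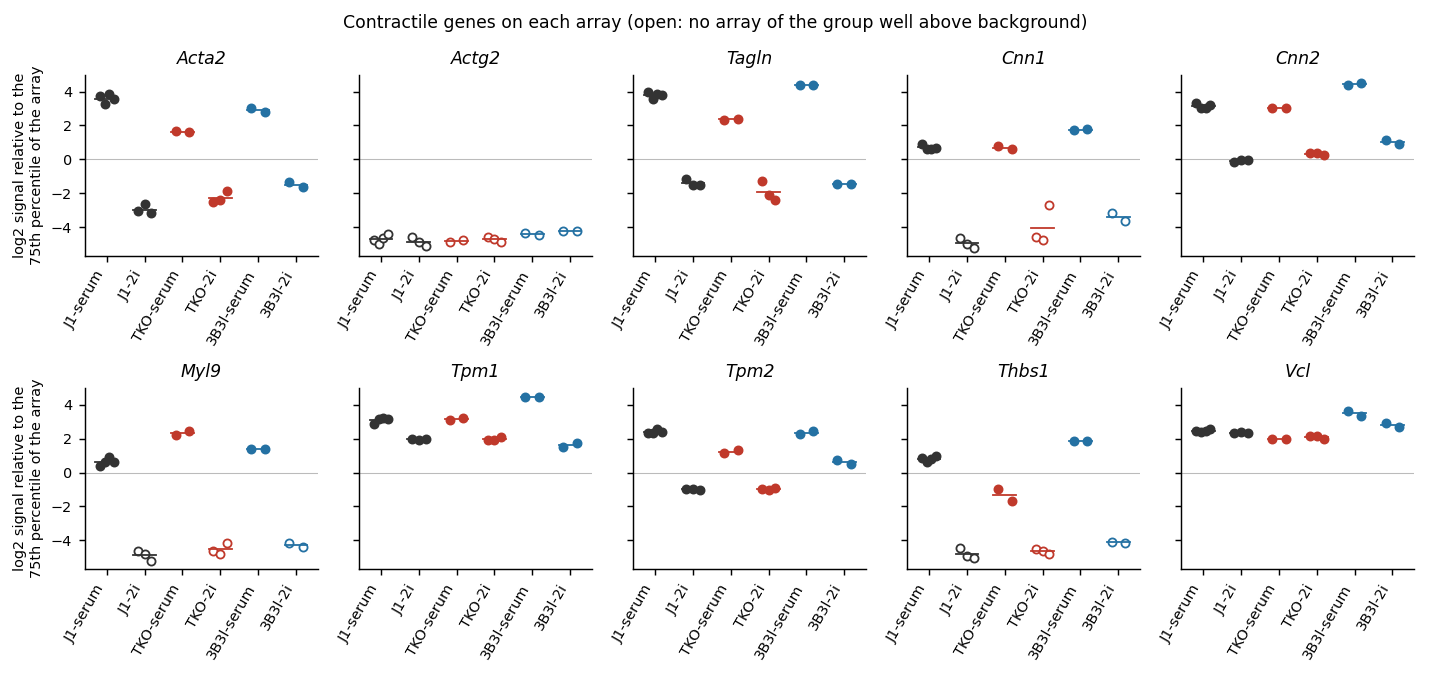
Level of each gene on each of the 16 arrays, as log2 signal over that array's 75th percentile, by group (black J1, red TKO, blue 3B3l). Points are arrays, short lines are group means, and open points mark groups in which no array was well above background. Serum levels lie above 2i levels without overlap in every line for 8 genes, the 2i mean of Vcl lies within 0.67 of its serum mean, and Actg2 is at background throughout.

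Acta2, alpha smooth-muscle actin, had levels of 3.71, 3.25, 3.83 and 3.55 on the J1-serum arrays, 1.65 and 1.59 in TKO-serum and 3.05 and 2.77 in 3B3l-serum. In 2i they were -3.07, -2.65 and -3.18 in J1, -2.50, -2.38 and -1.89 in TKO and -1.33 and -1.66 in 3B3l. No 2i array reached a serum array, and J1 had both the highest serum and the lowest 2i levels, with 2 of its 3 2i arrays well above background. The 2i level was 93.7-fold (J1), 14.7-fold (TKO) and 21.1-fold (3B3l) lower. The J1-2i levels were close to background. On replicates 1 and 3 they lay under the lowest level of any spot well above background (-2.39 and -2.93). The size of the fall in J1 is therefore uncertain. Actg2 lay between -5.12 and -4.22 on the 16 arrays, at background.

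Tagln encodes transgelin, an actin-binding protein of the calponin family. Its levels were 3.95, 3.58, 3.87 and 3.80 in J1-serum, 2.34 and 2.38 in TKO-serum and 4.38 and 4.38 in 3B3l-serum. They were -1.19, -1.50 and -1.53 in J1-2i, -1.28, -2.12 and -2.41 in TKO-2i and -1.47 and -1.44 in 3B3l-2i. The serum levels of the 3 lines did not overlap and were highest in 3B3l, while the 2i levels overlapped. The 2i level was lower by 36.8-fold (J1), 19.6-fold (TKO) and 57.1-fold (3B3l).

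The calponins Cnn1 and Cnn2 bind actin and tropomyosin, Cnn1 mainly in smooth muscle and Cnn2 in many cell types. Cnn1 had serum levels of 0.91, 0.60, 0.62 and 0.69 in J1, 0.80 and 0.59 in TKO and 1.73 and 1.78 in 3B3l, and was not well above background on any 2i array. It was at least 10.5-fold (J1), 9.43-fold (TKO) and 16.9-fold (3B3l) lower in 2i. One array stood apart, TKO-2i replicate 3 at -2.72 beside -4.61 and -4.79. Cnn2 had levels of 3.31, 3.02, 3.00 and 3.21 in J1-serum, 3.03 and 3.05 in TKO-serum and 4.38 and 4.52 in 3B3l-serum. In 2i it remained measured, at -0.15, -0.07 and -0.02 in J1, 0.39, 0.37 and 0.26 in TKO and 1.13 and 0.92 in 3B3l. In both media 3B3l was highest, and its 2i level was 10.7-fold lower than its serum level, against 9.26-fold for J1 and 6.52-fold for TKO.

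Myl9, the regulatory light chain of smooth-muscle and non-muscle myosin, had serum levels of 0.41, 0.62, 0.91 and 0.62 in J1, 2.21 and 2.45 in TKO and 1.37 and 1.39 in 3B3l. TKO was highest, the reverse of its place for Acta2, Tagln and Thbs1. In 2i no array was well above background, and Myl9 was at least 10.1-fold (J1), 29.3-fold (TKO) and 13-fold (3B3l) lower than in serum.

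The tropomyosins Tpm1 and Tpm2 wind along actin filaments and set which myosins and severing proteins reach them. The lead probe of Tpm1 read 2.88, 3.15, 3.24 and 3.19 in J1-serum, 3.10 and 3.23 in TKO-serum and 4.47 and 4.46 in 3B3l-serum. In 2i it read 1.98, 1.93 and 1.99 in J1, 1.94, 1.93 and 2.12 in TKO and 1.51 and 1.72 in 3B3l. The serum levels of J1 and TKO overlapped, 3B3l was the highest line in serum and the lowest in 2i, and on this probe the differences with 2i were 2.21-fold, 2.25-fold and 7.23-fold. The other 4 probes gave differences of -1.14 to -1.004 in J1, -0.996 to 0.26 in TKO, where none of them was past the call, and -2.68 to -0.37 in 3B3l. Tpm2 had levels of 2.32, 2.36, 2.55 and 2.40 in J1-serum, 1.16 and 1.31 in TKO-serum and 2.26 and 2.47 in 3B3l-serum. In 2i these were -0.98, -0.96 and -1.01 in J1, -0.96, -1.02 and -0.91 in TKO and 0.75 and 0.51 in 3B3l. J1 and 3B3l overlapped in serum and J1 and TKO in 2i, so that the line that stood apart was TKO in serum, lower, and 3B3l in 2i, higher.

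Thbs1 encodes thrombospondin-1, a secreted matrix protein. Its serum levels were 0.84, 0.60, 0.82 and 0.97 in J1, -0.97 and -1.66 in TKO and 1.85 and 1.85 in 3B3l, without overlap between lines. In 2i it was not well above background on any array and at least 11.3-fold (J1), 2.34-fold (TKO) and 18-fold (3B3l) lower. Vcl encodes vinculin, which ties integrin adhesions to actin. Its levels were 2.48, 2.39, 2.43 and 2.55 in J1-serum, 1.99 and 2.00 in TKO-serum and 3.64 and 3.34 in 3B3l-serum. In 2i they were 2.32, 2.38 and 2.33 in J1, 2.18, 2.17 and 1.99 in TKO and 2.93 and 2.70 in 3B3l. The differences of Vcl with 2i were -0.12, 0.12 and -0.67, all under 2-fold.

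Over the 16 arrays the levels of the 8 genes other than Vcl rose and fell together, with Pearson correlations between 0.785 (Tpm1 and Tpm2) and 0.987 (Tagln and Thbs1). Those with Vcl lay between 0.219 (Myl9) and 0.516 (Tpm1). The arrays share the 2 media and 3 lines, so these values describe the pattern and carry no test. Among 13619 other genes with complete values, the 5 most like Acta2 over the 16 arrays were the chemokine gene Cxcl10 (0.9905), angiomotin, Amot (0.990), the metalloproteinase inhibitor Timp3 (0.990), neuregulin, Nrg1 (0.989), and Fads3 (0.986). Those most like Tagln were Arhgef28 (0.991), Arhgef5 (0.991), skeletal actin, Acta1 (0.987), the cytochrome gene Cyp1b1 (0.986), and Stard13 (0.985).

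The comparison of TKO with J1 in serum asked whether the genes differ where DNA methylation is lost and the medium is the same. Of the 9 genes, 4 were lower in TKO and 1 was higher, where 8.72% of all genes tested were called lower and 7.73% higher. The log2 difference of the lower genes was -2.13 (SE 0.20, limma adjusted p 3.1e-06) for Thbs1, -1.96 (SE 0.21, limma adjusted p 1.1e-05) for Acta2, -1.44 (SE 0.24, limma adjusted p 0.00035) for Tagln and -1.17 (SE 0.11, limma adjusted p 2.4e-06) for Tpm2, or 4.36-fold, 3.9-fold, 2.72-fold and 2.26-fold. Myl9 was higher by 1.68 (SE 0.20, limma adjusted p 2.1e-05), or 3.21-fold. For each of these 5 genes the arrays of the lines did not overlap. The differences of Cnn1 (-0.01), Cnn2 (-0.09) and the lead probe of Tpm1 (0.05) had adjusted p-values of 0.99, 0.58 and 0.78, and Vcl differed by -0.47, under 2-fold (adjusted p 0.0043).

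Within slide 1, which held 2 arrays of each group, the differences were -2.21 for Thbs1, -2.07 for Acta2, -1.48 for Tagln, -1.24 for Tpm2 and 1.56 for Myl9. The 5 calls stood with each array left out. J1-serum, the group on feeders, also had the higher fibroblast markers, of which 10 of 13 tested were called lower in TKO (median -1.97, against 0.01 over all genes), with Pdgfra, Pdgfrb, Dcn and Twist2 among the 10 at background in TKO-serum. Col1a1 differed by -3.53, Col1a2 by -3.44, Col3a1 by -2.27 and Thy1 by -1.70. Their part in the differences of the 4 lower genes was not tested, and in serum the line and the feeders of J1 cannot be told apart. These comparisons share their serum arrays with the differences that chose the genes.

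Between 3B3l and J1 in serum, 4 of the 9 genes were higher in 3B3l, where 9.98% of all genes were called, and none lower (9.28%). Tpm1 was higher by 1.35 (SE 0.11, limma adjusted p 1.2e-06), Cnn2 by 1.31 (SE 0.11, limma adjusted p 1.1e-06), Thbs1 by 1.04 (SE 0.20, limma adjusted p 0.00082) and Vcl by 1.03 (SE 0.11, limma adjusted p 8.1e-06). The Tpm1 value is that of the lead probe, and of its other 4 probes only A_55_P2078680 was also called (1.39). The other three gave 0.16, 0.05 and -0.38, and the mean of the 5 was 0.52, under 2-fold. The last 2 genes lay close to the 2-fold limit. Thbs1 was 0.95 and Vcl 0.80 under quantile normalization, and they were 0.94 and 0.79 in the authors' table. Thbs1 was 0.97 without J1-serum replicate 2, Vcl 0.88 without 3B3l-serum replicate 1, and the second probe of Vcl differed by 0.48. Acta2 differed by -0.68 and Tagln by 0.58, both under 2-fold, and Cnn1 by 1.05 (SE 0.43, limma adjusted p 0.065). Without TKO-2i replicate 3, the array that stood apart for Cnn1, the adjusted p of that difference was 0.00041, and it was called without TKO-2i replicate 2 as well. Against J1-serum replicate 1, the one J1 array on the slide of 3B3l, Tpm1 was 1.59, Cnn2 1.14, Thbs1 1.01 and Vcl 1.01 higher.

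Between the 2 lines grown without feeders in serum, 7 of the 9 genes were higher in 3B3l than in TKO, where 5.28% of all genes were called, and none lower (5.4%). The differences were 3.17 (SE 0.23, limma adjusted p 1e-06) for Thbs1, 2.02 (SE 0.27, limma adjusted p 0.00019) for Tagln and 1.49 (SE 0.13, limma adjusted p 3.8e-06) for Vcl. For Cnn2, Tpm1, Acta2 and Tpm2 they were 1.40, 1.30, 1.29 and 1.13, with limma adjusted p-values from 6.8e-06 to 0.0021. Myl9 differed by -0.95 (SE 0.23, limma adjusted p 0.008), lower in 3B3l and just under 2-fold, and Cnn1 differed by 1.06 (SE 0.50, limma adjusted p 0.13), which was called without TKO-2i replicate 3. The second probe of Tpm2 differed by 0.67, under 2-fold. That of Vcl read -0.62 and -0.64 in 3B3l-serum and -1.46 and -1.64 in TKO-serum, also under 2-fold. The median over the 9 genes was 1.30, against 0.14 over all genes tested. The lines had no slide in common, so line and slide cannot be told apart in this comparison. With the slide in the model, tied only through J1-serum replicate 1, Acta2 was 1.16 higher with an adjusted p of 0.082. Among 7 tested trophoblast markers 6 were called higher in 3B3l, and among 13 fibroblast markers 7 were called higher, with Pdgfrb among them at background in both lines, and 2 lower, and their part was not tested.

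**Figure D3:**
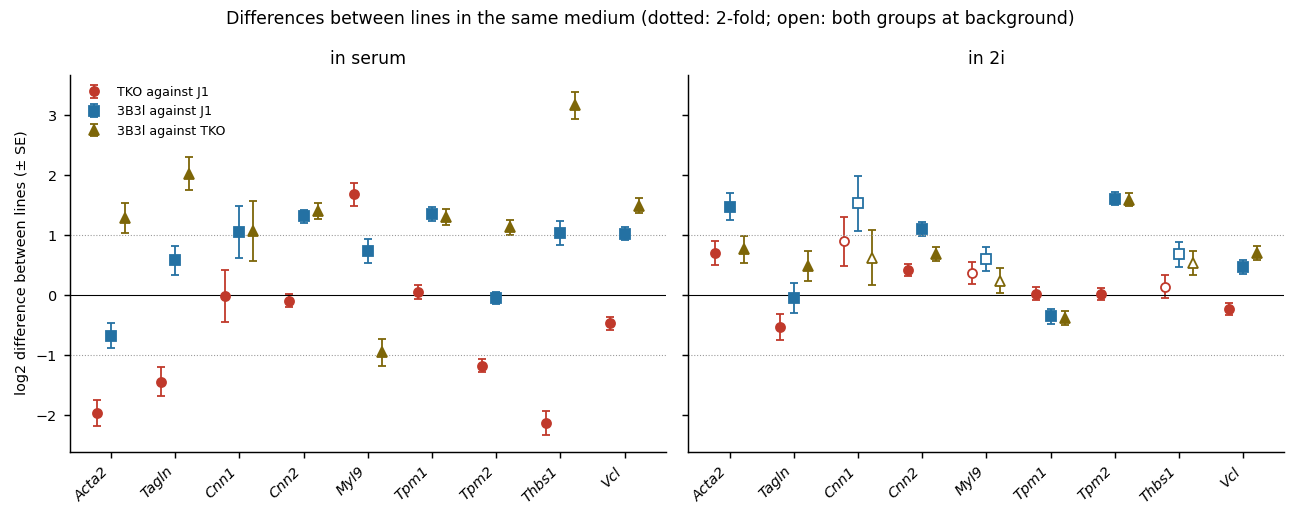
Log2 difference between lines in the same medium for the 9 tested genes (points, with limma's standard error), in serum (left) and in 2i (right). Dotted lines mark 2-fold, and open symbols mark genes at background in both groups. In serum TKO lies below 0 for Acta2, Tagln, Tpm2 and Thbs1 and above it for Myl9, while in 2i the differences between TKO and J1 are all under 2-fold.

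In 2i, none of the 9 genes was called between TKO and J1 by limma, where 3.82% of all genes were called higher and 3.53% lower, and 5 had an unadjusted p under 0.05. Acta2 differed by 0.71 (SE 0.20, limma adjusted p 0.022) and Cnn2 by 0.42 (SE 0.10, limma adjusted p 0.012), both higher in TKO without overlap and under 2-fold. For Acta2, close to background in J1-2i, the difference was 0.99 on slide 1 and 0.15 on slide 2. Tagln differed by -0.53, with -0.91 on slide 1 and 0.22 on slide 2. The median of the 6 genes measured was 0.02, against 0.05 over all genes. Cnn1, Myl9 and Thbs1 were at background in both lines and have no fold.

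Between 3B3l and J1 in 2i, 3 of the 6 genes measured in either line were called higher in 3B3l, where 7.9% of all genes were called, and none lower (6.48%). Tpm2 was higher by 1.61 (SE 0.11, limma adjusted p 5.8e-07), Acta2 by 1.47 (SE 0.22, limma adjusted p 0.00028) and Cnn2 by 1.10 (SE 0.12, limma adjusted p 1.7e-05). Acta2 lay close to background in J1-2i, so the size of its difference is uncertain. Cnn1 also passed the test, but it was not well above background on any array of either group, so that this is no measured difference. Cnn2 stood under 2-fold without 3B3l-2i replicate 1 (0.997), with the slide in the model (0.87) and after normexp (0.85). Between 3B3l and TKO in 2i Tpm2 alone was called, higher by 1.59 (SE 0.11, limma adjusted p 6e-07), where 4.69% of all genes were called higher and 5.27% lower. Its second probe gave 1.72 against J1 and 1.63 against TKO, with that probe well above background on 2 of 3 J1-2i and 1 of 3 TKO-2i arrays. No 3B3l array shared a slide with J1-2i or TKO-2i arrays, so line and slide cannot be told apart in 2i.

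Whether the lines differed in their response to 2i was tested for the 7 genes other than Tagln and Acta2, which gave the rule. Of these, Cnn1, Myl9 and Thbs1 were at background in 2i in each line, so the size of their response is unknown, and Cnn2, Tpm1, Tpm2 and Vcl were measured in both media. All 3 tests use the differences described above and share arrays. A positive value means a smaller fall in the line named first. The fall in J1 includes the loss of its feeders, so in values against J1 line and feeders cannot be told apart. Between TKO and J1, Tpm2 alone of the 4 passed the call (1.19, SE 0.15, limma adjusted p 7.1e-05), where 7.75% of all genes were called with a positive and 7.47% with a negative value. The 2i levels of Tpm2 in TKO and J1 overlapped, so its value restates their serum difference. Cnn2 differed by 0.51 (limma adjusted p 0.027), under 2-fold. Between 3B3l and J1 (8.6% and 8.56%), Tpm2 again had the smaller fall in 3B3l (1.66, SE 0.15, limma adjusted p 6.6e-06), and the lead probe of Tpm1 had the larger one (-1.71, SE 0.17, limma adjusted p 9.8e-06), while Vcl differed by -0.55 (limma adjusted p 0.021), under 2-fold. That call of Tpm1 rests on the probe: A_55_P2078680 gave -1.60, but the other three gave -0.50, -0.54 and 0.64, not called, and the mean of the 5 was -0.74, not called either. Between 3B3l and TKO (4.63% and 4.8%), Tpm1 alone of the 4 passed the call, with a larger fall in 3B3l (-1.69, SE 0.18, limma adjusted p 4.4e-05). Cnn2 and Vcl differed by -0.72 and -0.79 with limma adjusted p-values of 0.015 and 0.0082, both under 2-fold. For Tpm1, 4 of the 5 probes were called, at -1.69 to -1.26, A_55_P2187053 gave -0.63, and the mean of the 5 was -1.32. Thbs1 and Myl9 passed the same test between TKO and each of the other lines, but with 2i at background those values restate the serum differences of the lines and are not given. As values only, the differences of the Acta2 response were 2.67 for TKO and 2.15 for 3B3l relative to J1, and those of Tagln 0.91 and -0.63. The Acta2 values are of uncertain size, with J1-2i close to background.

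Tpm1 makes many transcripts by alternative splicing and had 5 probes, and these disagreed between lines. The lead probe, designed on transcript NM_001164249, differed by 0.05 between TKO and J1 in serum. Probe A_55_P2187038, designed on NM_001164248, read 3.13, 3.15, 3.21 and 3.24 in J1-serum, 1.76 and 1.90 in TKO-serum and 3.30 and 3.39 in 3B3l-serum. In 2i it read 2.06, 1.95 and 2.12 in J1, 1.41, 1.45 and 1.49 in TKO and 1.84 and 1.57 in 3B3l. On this probe TKO was below J1 in both media without overlap, with a difference of -1.35 (SE 0.10, limma adjusted p 4.1e-07) in serum. The second probe on the same transcript, A_55_P2187043, gave -1.39 (SE 0.11, limma adjusted p 1.1e-06), and A_55_P2187053 on NM_001164255 gave -1.38. A_55_P2078680 on NM_001164251 gave -0.04. The probes also differed in their change with 2i. In TKO the lead probe changed by -1.17 and A_55_P2078680 by -0.996, while A_55_P2187038 changed by -0.38, A_55_P2187043 by -0.34 and A_55_P2187053 by 0.26. In 3B3l the same 5 changes were -2.85, -2.68, -1.64, -1.66 and -0.37, and in J1 they lay between -1.15 and -1.004.

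The difference of 2 probes on the same array does not depend on the scaling of the array. A_55_P2187038 minus the lead probe lay between -0.03 and 0.25 on the J1-serum and J1-2i arrays, between -1.34 and -1.33 in TKO-serum and between -0.63 and -0.48 in TKO-2i. Between TKO and J1, averaged over the media, this difference was -1.01 for A_55_P2187038 and -1.04 for A_55_P2187043. For each, an exact two-sided permutation test of the lines within the media gave p = 0.00333, the smallest that 300 arrangements can give, and 0.0133 after adjustment over 8 such tests. For 3B3l the values were -0.59 (exact permutation p = 0.04, adjusted 0.064) and -0.72 (exact permutation p = 0.00667, the smallest of 150 arrangements, adjusted 0.0178). The other 4 of the 8 tests gave -0.04 for TKO and 0.09 for 3B3l on A_55_P2078680 (exact permutation p = 0.543 and 0.24), and -0.79 for TKO and -0.56 for 3B3l on A_55_P2187053 (exact permutation p = 0.02 and 0.213, adjusted 0.04 and 0.274). In 3B3l the average joins unlike media. A_55_P2187038 minus the lead probe lay between -1.17 and -1.07 in 3B3l-serum and between -0.15 and 0.34 in 3B3l-2i, around the J1 values, and A_55_P2187043 minus the lead probe between -1.52 and -1.25 in 3B3l-serum and between -0.20 and -0.18 in 3B3l-2i. These tests were chosen after the values of the probes were seen. They therefore describe the pattern and are no independent test of it, and where each probe lies in the transcript was not checked.

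**Figure D4:**
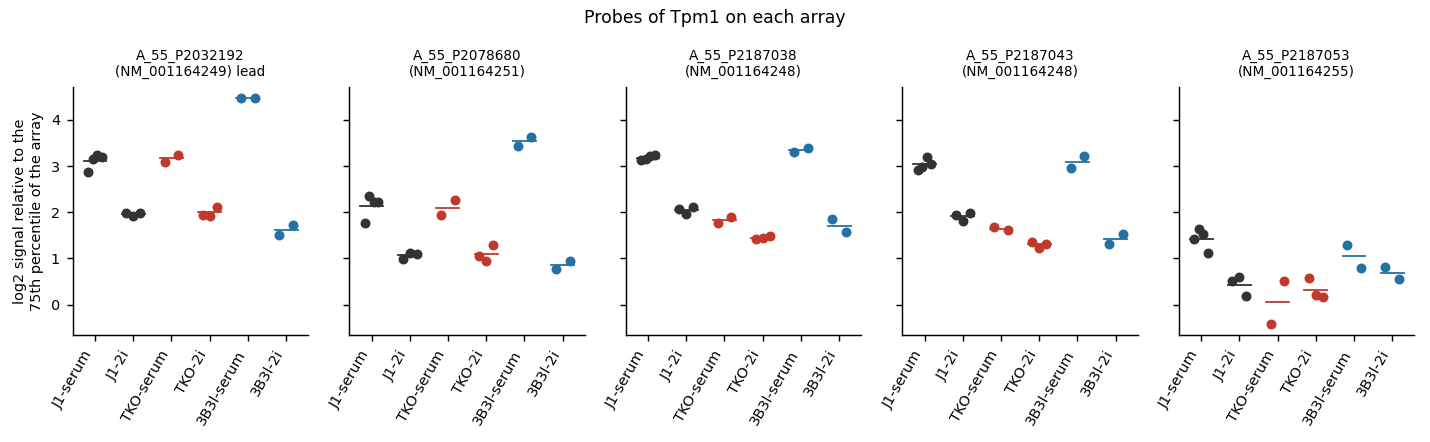
Level of each of the 5 probes of Tpm1 on each array, as log2 signal over that array's 75th percentile (points, with group means as short lines; black J1, red TKO, blue 3B3l). TKO lies with J1 on the lead probe and on A_55_P2078680, and below J1 in both media on A_55_P2187038 and A_55_P2187043.

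Of 13 genes of SRF and its control, 12 were tested. One of them, Elk1, was saturated on every array and cannot show a change. Of the other 11, Elk4 was lower in 2i in J1 (-1.41) and Elk3 higher in TKO (1.87), and in 3B3l limma called none, with 4 at an unadjusted p under 0.05. Beside the shares of all genes called (12.5% lower and 10.1% higher in J1, 8.97% and 6.79% in TKO, 7.9% and 5.65% in 3B3l), so few calls among 11 genes do not set the list apart. Srf differed by -0.49 (J1), -0.60 (TKO) and -0.61 (3B3l), and Mrtfa and Mrtfb, which encode MRTF-A and MRTF-B, by -0.36 to 0.60 in the 3 lines. Myocd, the co-activator of cardiac and smooth muscle, was not well above background on any array. None of Srf, Mrtfa and Mrtfb was called in any line. The median over the 11 was -0.04 (J1), 0.16 (TKO) and -0.14 (3B3l). Elk3 and Elk4, both ternary complex factors, are named here because they were called.

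Of 18 further targets of SRF with the MRTFs, 17 were tested. In 2i 8 were lower and 1 higher in J1, 4 lower and 1 higher in TKO, and 8 lower and none higher in 3B3l, with medians of -0.57, -0.24 and -0.87, where the shares of all genes were those just given. Ccn1, a matricellular protein of adhesion, fell by 4.21 (J1), 1.13 (TKO) and 3.24 (3B3l). Ccn2, the connective tissue growth factor, fell by 3.70 in J1 and 2.34 in 3B3l and differed by -0.78 in TKO. For both, the response was smaller in TKO than in J1 (difference of the responses 3.08 for Ccn1, SE 0.26, limma adjusted p 3.4e-06, and 2.92 for Ccn2). The 2i levels of Ccn1 in TKO and J1 differed by 0.70, under 2-fold, and the serum difference was -2.38 for Ccn1 and -1.95 for Ccn2, lower in TKO. In serum 7 of the 17 were lower in TKO than in J1 and none higher (8.72% and 7.73% of all genes), and 9 were higher and none lower in 3B3l than in TKO (5.28% and 5.4%). In the serum differences and responses set against J1, the line and the feeders of J1-serum cannot be told apart. The filamin gene Flna and the non-muscle myosin gene Myh9 differed with 2i by under 2-fold in each line (-0.57, 0.01 and -0.69 for Flna, and -0.45, 0.17 and -0.99 for Myh9).

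Of 8 immediate early targets reached through the ternary complex factors, 6 were tested, and Egr1, Fos and Junb were lower in 2i in every line (12.5%, 8.97% and 7.9% of all genes in J1, TKO and 3B3l), with medians over the 6 of -0.85 (J1), -0.24 (TKO) and -0.49 (3B3l). Egr1, a zinc-finger factor, had an adjusted p of 9.3e-06 (limma) for its fall by 2.88 in J1 and fell by 4.64 in TKO, where 2 of 3 2i arrays were well above background, and by at least 22.3-fold in 3B3l. The difference of its response from that in J1 was -1.76 in TKO (limma adjusted p 0.022) and -2.90 in 3B3l (limma adjusted p 0.0014), the latter of uncertain size. In serum Egr1 differed from J1 by 0.63 in TKO and 0.40 in 3B3l, neither called. Fos fell by 1.99 in J1 and was at background in TKO-2i and 3B3l-2i, at least 1.24-fold and 1.65-fold lower than in serum. Junb, outside the naming rule and named here because it was called, differed by -1.65, -1.75 and -1.95.

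Among paralogs of the genes, 13 were tested, and the striated-muscle actins were also lower in 2i. Acta1, skeletal actin, was not well above background on any 2i array and was at least 11.7-fold (J1), 9.09-fold (TKO) and 27.3-fold (3B3l) lower than in serum. Actc1, cardiac actin, was at least 2.39-fold, 3.75-fold and 2.79-fold lower. In serum Acta1 was higher in 3B3l than in J1 by 1.59 and differed by -0.22 between TKO and J1. The other called paralogs, named for that reason, were Thbs3, lower in 2i in J1 (-1.90) and 3B3l (-1.66), and Tagln3, higher in J1 (1.02). The non-muscle relatives Tagln2 and Tpm4 differed by under 2-fold with 2i in each line (-0.37, 0.49 and 0.12 for Tagln2, and -0.86, -0.30 and -0.90 for Tpm4). Actb and Actg1, the cytoplasmic actins, were saturated on every array and Cnn3, Tpm3, Myl6 and Myl12a on some, so their differences cannot be read. Of the other 7, the calls were 3 lower and 1 higher in J1, 2 lower in TKO and 3 lower in 3B3l, beside the same shares of all genes, and their medians were -0.86, -0.70 and -0.90. Actin genes are nearly identical in coding sequence, and whether the probes tell them apart was not checked.

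**Figure D5:**
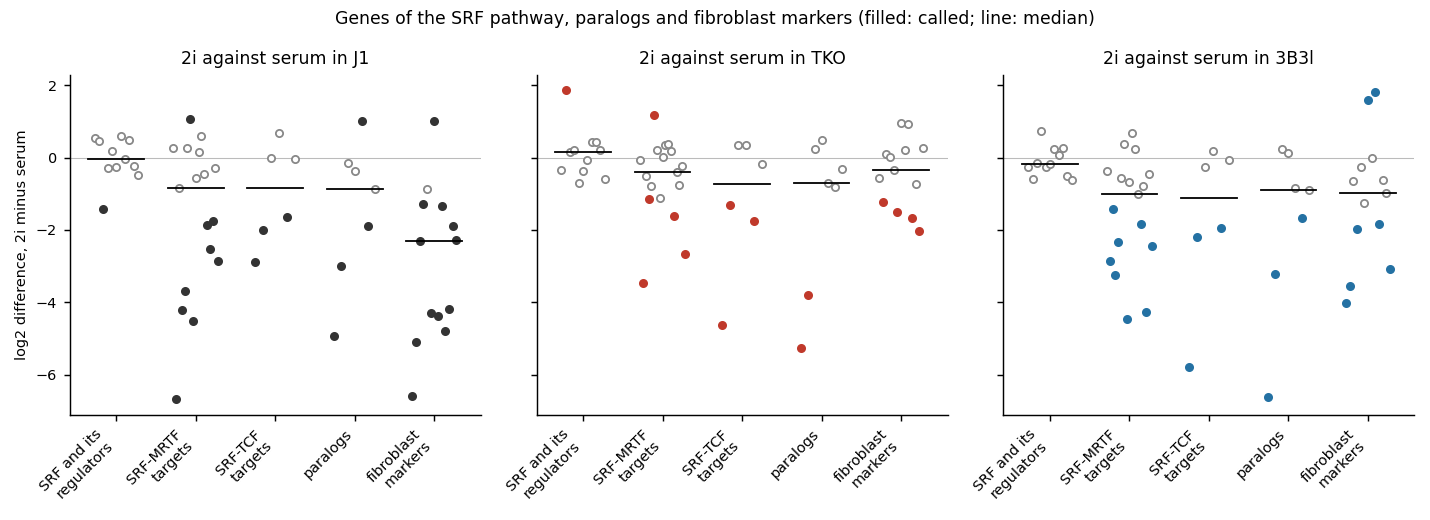
Log2 difference between 2i and serum in J1, TKO and 3B3l for each tested gene of 5 lists: SRF and its regulators (11 genes), SRF targets with MRTF (17), SRF targets with TCF (6), paralogs (7) and fibroblast markers (13). Genes saturated on 1 or more arrays are left out. Filled points were called, open points were not, and lines are medians of the points, in which genes at background in one medium are not held at their bound. The median of the regulators lies between -0.18 and 0.16 in the 3 lines, and Ccn1, a target with MRTF, lies at -4.21 in J1.

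The 2i response of the fibroblast markers differed between lines, with 10 of 13 called for a smaller fall in TKO than in J1 (7.75% of all genes). Among the 10, Pdgfra, Dcn and Twist2 were at background in TKO in both media and have no measured response there. In J1, from feeders to gelatin, 11 of 13 tested were lower in 2i and 1 higher (median -2.31, with 12.5% and 10.1% of all genes). In TKO 4 were lower and none higher (median -0.46, with 8.97% and 6.79% of all genes), and in 3B3l 5 were lower and 2 higher (median -0.87, with 7.9% and 5.65%), of which Dcn in TKO and Ddr2 in 3B3l were at background in both media. Col1a1, a chain of type I collagen, was at least 35.9-fold lower in J1, fell by 4.02 in 3B3l and differed by -0.57 in TKO. Col3a1 fell by 2.31 in J1 and differed by 0.11 in TKO and -0.65 in 3B3l. Thy1, a surface glycoprotein of fibroblasts, fell by 4.20 in J1 and differed by -0.72 in TKO and -0.63 in 3B3l. The markers called lower in TKO, named for that reason, were Twist1 (-2.04), S100a4 (-1.67) and Col1a2 (-1.21) besides Dcn. Their part in the 2i differences of the contractile genes was not tested.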

How the data were processed

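Total RNA of 16 mESC samples was hybridised to one-colour Agilent arrays. Per the labels and the methods of the study, signals were extracted with Agilent Feature Extraction 11.5.1.1, and the deposited scanner intensity values used here are its processed signals, already background-subtracted. The authors also deposited a quantile-normalized log2 table, used here as an alternative: 13 of its 16 columns matched best another replicate of the same group, and 16 of 16 the same group (lowest best correlation 0.997), so its replicate numbers were not used.

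The log2 intensity was taken relative to the 75th percentile of each array over all spots that are no controls and not outliers. That percentile was 1019 to 1835 signal units, and 39.7% to 49.0% of spots were well above background, which with the number of arrays limits the precision. Spots that are controls or outliers did not enter, saturated ones did, and repeated spots were reduced to their mean. An array detected a probe if 50% or more of the probe's spots stood well above background. In all 27126 probes, 9277 of them without a gene name, were detected on each array of 1 or more groups and were tested, which gave 13917 genes. Bounds use the lowest spot level well above background on each array. Group means of the 6 groups were fitted with limma 3.58.1 in R 4.3.3 and Benjamini-Hochberg adjustment over all tested probes, after the method was tested on simulated data.

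The genes and gene lists were chosen with earlier results of these data known. Named genes are the 10 members, set genes of the other lists, the 5 genes most correlated with Acta2 and with Tagln, and genes called in a list, which were chosen after their values were seen. Alternatives were quantile normalization, normexp background correction (offset 50), array median scaling, the authors' table, other filters on dim probes, slide and replicate number as blocks, no fold limit, the mean of a gene's probes, and each array left out. Genes saturated on 1 or more arrays, or at background in both groups, were left out of counts after their values were seen. Start windows came from RefSeq, GRCm38.p6.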

Additional observations from a re-analysis of the deposited data

Results flagged for a closer look

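The difference between the responses of 2 lines to 2i passed the test and the 2-fold limit for 2 of the 4 genes measured in both media, and each such value is given here in log2 units with limma's adjusted p. For Tpm2, a tropomyosin, the response differed by 1.19 between TKO and J1 (adjusted p 7.1e-05) and by 1.66 between 3B3l and J1 (adjusted p 6.6e-06), a smaller fall than in J1 in both. In 2i the Tpm2 levels of TKO and J1 overlapped, so the 1.19 restates their serum difference. J1 was on feeders in serum only, so in values against J1 line and feeders cannot be told apart. For Tpm1 it differed by -1.71 between 3B3l and J1 (adjusted p 9.8e-06) and by -1.69 between 3B3l and TKO (adjusted p 4.4e-05), a larger fall in 3B3l on the lead probe. The mean of the 5 probes of Tpm1 gave -0.74, not called, between 3B3l and J1 and -1.32, called, between 3B3l and TKO. No 3B3l array shared a slide with a TKO array. In the 4 J1-serum arrays, the one group large enough to be examined, no array stood apart from the rest for any of the 9 tested genes.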

How the results depend on the processing

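With each array left out in turn, the count of genes called was 5 for TKO against J1 in serum, 8 for 2i against serum in each line, 0 for TKO against J1 in 2i, 3 to 5 for 3B3l against J1 in serum, 2 to 4 for 3B3l against J1 in 2i, 7 to 8 for 3B3l against TKO in serum, 1 to 2 for 3B3l against TKO in 2i, and, for the differences of responses, 3 for TKO minus J1, 2 for 3B3l minus J1 and 2 to 3 for 3B3l minus TKO. The counts for the responses include Thbs1 and Myl9, and those for 3B3l against J1 in 2i Cnn1, which were at background in 2i. The 2 calls of 3B3l against J1 in 2i were reached without 3B3l-2i replicate 1, and the 2 of 3B3l against TKO in 2i without TKO-2i replicate 3, which added Cnn1. For 3B3l against J1 in serum, 2 genes were called with the mean of a gene's probes, in the authors' table and after quantile normalization. For 3B3l against J1 in 2i, 2 were called under normexp and with the slide as a block. Where only probes well above background on all 16 arrays were tested, fewer genes could be called: 4 in 2i against serum in each line, 2 for TKO against J1 in serum, 2 for 3B3l against J1 in 2i, and 1 each for the differences TKO minus J1 and 3B3l minus TKO. Of all genes tested so, 14.3% (J1), 9.69% (TKO) and 8.58% (3B3l) were called for 2i against serum. For the other comparisons the shares were 11.4%, 8.82%, 9.91% and 5.72%, in the order given. Without the fold limit, 2 were called for TKO against J1 in 2i, 8 for 3B3l against J1 in 2i, 5 for 3B3l against TKO in 2i and 5 for the difference 3B3l minus TKO, where 26.2%, 43.6%, 32.6% and 15.6% of all genes were. Of these calls, 2, 5, 5 and 3 were of genes measured in 2i. With the mean of a gene's probes, 1 was called for the difference 3B3l minus J1, where Tpm1 stood at -0.74. Tpm1 also lost its call for 2i against serum in TKO (-0.52) and for 3B3l against J1 in serum (0.52). Other than where the alternative's own construction sets the number tested or the limit, the cause was not tested. The difference of Tpm1 between TKO and J1 in serum was reversed with another probe, from 0.05 to -1.35 (A_55_P2187038) and -1.39 (A_55_P2187043). Of the other values of single genes under the alternatives, 2709 kept their direction and side of the threshold, 32 lost and 29 gained the call. Quantile normalization moved the median of all genes from 0.14 to 0.03 for 3B3l against J1 in serum and from 0.10 to -0.01 in 2i, and array median scaling moved it from 0.06 to 0.19 for 2i against serum in J1. The array signal over background limits Cnn1, Myl9, Thbs1 and Actg2 in 2i to bounds or no value.

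Correlations of deviations between samples with the same replicate number lay between -0.13 and 0.29, which shows no clear pairing by number. In groups of 2 arrays the deviations mirror each other, and the authors' table may number the replicates otherwise. The check therefore cannot decide whether the samples are paired. With the replicate number as a block, 5 genes were called for TKO against J1 in serum, 4 for 3B3l against J1 in each medium, 7 for 3B3l against TKO in serum, 1 in 2i, and 2 for the difference 3B3l minus TKO, where Myl9 stood at 1.24 with an adjusted p of 0.050. No other call changed with the block.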

Other observations

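Other marker lists gave further values. Of 6 further smooth-muscle genes, 3 were tested. Des, the intermediate filament desmin, fell by 2.46 with 2i in J1 and differed by -0.28 in TKO and 0.13 in 3B3l, and it was the one gene of the list called with 2i. Of 8 mesoderm markers 5 were tested, and the summed signal of the 8 was 1.63 to 3.31 times the 75th percentile over all arrays. With 2i, Gsc was called higher in each line, T higher in TKO and 3B3l, and Msgn1 lower in J1. In 3B3l Gsc was at background in both media. Of all genes, 10.1% (J1), 6.79% (TKO) and 5.65% (3B3l) were called higher, and 12.5% lower in J1. All 9 primitive endoderm markers were called lower in TKO-serum than in J1-serum (median -2.77, with 8.72% of all genes called lower) and in 3B3l-serum than in J1-serum (median -2.63, with 9.28%). All 7 tested trophoblast markers were called higher in 3B3l-serum than in J1-serum (median 1.68, with 9.98% of all genes called higher). Of the 8 mESC markers, 5 were saturated on 1 or more arrays (Pou5f1, Nanog, Zfp42, Dppa5a and Tdgf1), and their differences cannot be read. Of the other 3, Sox2, Esrrb and Dppa4, limma called none between lines in either medium, with 0 to 3 at an unadjusted p under 0.05 in each comparison. With 2i, Esrrb was called higher in J1 (1.08, with 10.1% of all genes called higher) and Dppa4 lower in TKO (-1.20, with 8.97% lower).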
